A study of Danio rerio with 2 samples.

Results

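The genes of oxidative phosphorylation were taken from the single-cell expression tables by name: every gene starting with nduf, sdha, sdhb, sdhc, sdhd, uqcr, cox4, cox5, cox6, cox7, cox8, atp5 or mt-. This gave 115 of the 24900 genes in the tables, and 107 of them had at least 10 counts over the cells that passed the quality filter. Of these 107 genes, 82 encode nuclear subunits of the respiratory chain or the ATP synthase (34 of complex I, 5 of complex II, 8 of complex III, 16 of complex IV, 17 of complex V and 2 of the ndufa4 group), 10 encode assembly factors, 2 encode ATP synthase inhibitors and 13 are genes of the mitochondrial genome. The genes were chosen by name, with earlier results of these data known, and then cut by the limit of 10 counts. Just inside the count limit stood cox5b2 with 10 counts, ndufs8a with 16 and sdhda with 19, and just outside stood ndufa9b with 7 and sdhaf1, ndufa4 and cox4i1l with 6 each. The remaining excluded genes were ndufa4l2b with 3 counts, and cox6a2, ndufs1 and ndufs8b with 0.

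Oxidative phosphorylation passes electrons from NADH, through complex I, and from succinate, through complex II, to complexes III and IV and to oxygen, while protons are pumped across the inner mitochondrial membrane and drive the ATP synthase, complex V. Subunits of complexes I, III, IV and V are encoded by both the nuclear and the mitochondrial genome, whereas complex II, which is also the succinate dehydrogenase of the TCA cycle, is encoded by the nucleus alone. In islet cells the ATP made in this way is known to couple nutrient supply to membrane potential and hormone release.

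The cells came from hand-picked islets of zebrafish larvae at 7 days postfertilization (dpf), sorted for GFP. The mutant sample was gcgr-/-;Tg(gcga:GFP), in which both glucagon receptor genes, gcgra and gcgrb, are disrupted, and the control sample was Tg(gcga:GFP), labelled as wild type. Both therefore carried the same transgene, in which the promoter of the glucagon gene gcga drives GFP, and in both an unstated number of larvae supplied the islets. Of 384 gcgr-/- and 192 control cells sequenced, 288 and 156 passed the filter (500 or more genes detected and no more than 10% of counts from mitochondrial genes), with a median of 25522 counts per gcgr-/- cell and 22042 per control cell.

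Each genotype was 1 sample, so the genotypes were compared without a test. Counts were summed over the cells of a group and given as a percent of all counts or as CPM, the counts of a gene in every 1000000 counts of the group, and a ratio is the gcgr-/- CPM over the control CPM with an exact 95% interval that covers counting error only. Reads made by PCR are not independent molecules, and the spread between larvae is not in these intervals. The cell names began with a letter that is read here as a plate, C, D, E and F for gcgr-/- and A and B for control. The prefix of the name is read as a library, which gave 16 and 8 libraries of 14 to 23 and 18 to 21 passing cells. No plate held both genotypes, so plate and genotype cannot be told apart. The libraries hold 3′ ends and were counted on coding sequence, so levels were not compared between genes.

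The labels name all cells as α cells. The 6 α-cell markers, including gcga and gcgb, held 9.59% of counts in gcgr-/- cells and 0.265% in control cells, the 5 δ-cell markers 6.89% and 11%, and the 6 β-cell markers 4.02% and 5.21%. Cells were therefore also grouped by their leading hormone, meaning whichever of ins, gip, ghrl, the glucagon genes (gcga and gcgb) and the somatostatin genes (sst1.1, sst1.2 and sst2) had most counts, where that was at least 1% of the cell's total. There were 106 gcgr-/- and 3 control cells led by a glucagon gene, 52 and 36 led by sst1.1, 29 and 29 led by sst1.2, and 54 and 41 led by ins, and 27 and 31 had no leading hormone. The remaining cells were led by sst2, gip or ghrl and are part of the values over all passing cells. Epithelial markers held 0.0799% and 0.371% of counts and acinar markers 0.0103% and 0.0364%. The disrupted genes gave no check of the labels, since their counts were few. For gcgra there were 23 counts in 3 gcgr-/- cells and 13 in 2 control cells, and gcgrb had 1 count in each genotype.

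Nuclear subunit transcripts made up a smaller share of counts in gcgr-/- cells than in control cells, and so did the mitochondrial genes. The nuclear subunits held 1.94% of counts in gcgr-/- cells and 2.36% in control cells, a ratio of 0.822 (0.816 to 0.828). Mitochondrial genes held 1.82% and 2.18%, a ratio of 0.831 (0.825 to 0.838), and the limit of 10% on this share in the cell filter caps how far it can vary. By plate the nuclear subunits held 1.91, 1.87, 1.92 and 2.04% in gcgr-/- plates C to F, against 2.42 and 2.25% in control plates A and B, and the mitochondrial genes 1.9, 1.69, 1.81 and 1.86% against 2.03 and 2.43%. Every gcgr-/- plate was thus below both control plates for both parts of the pathway.

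Single libraries overlapped. The nuclear share was lowest at 1.53%, 1.93% at the median and highest at 2.48% over 16 gcgr-/- libraries, against 1.92, 2.30 and 2.65% over 8 control libraries. For the mitochondrial genes the same values were 1.51, 1.81 and 2.37% in gcgr-/- libraries and 1.84, 2.09 and 2.90% in control libraries. Hormone transcripts took 22.0% of counts in gcgr-/- cells and 17.7% in control cells, and with 9 hormone genes left out of the totals the ratios were 0.867 for nuclear subunits and 0.877 for mitochondrial genes.

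**Figure D1:**
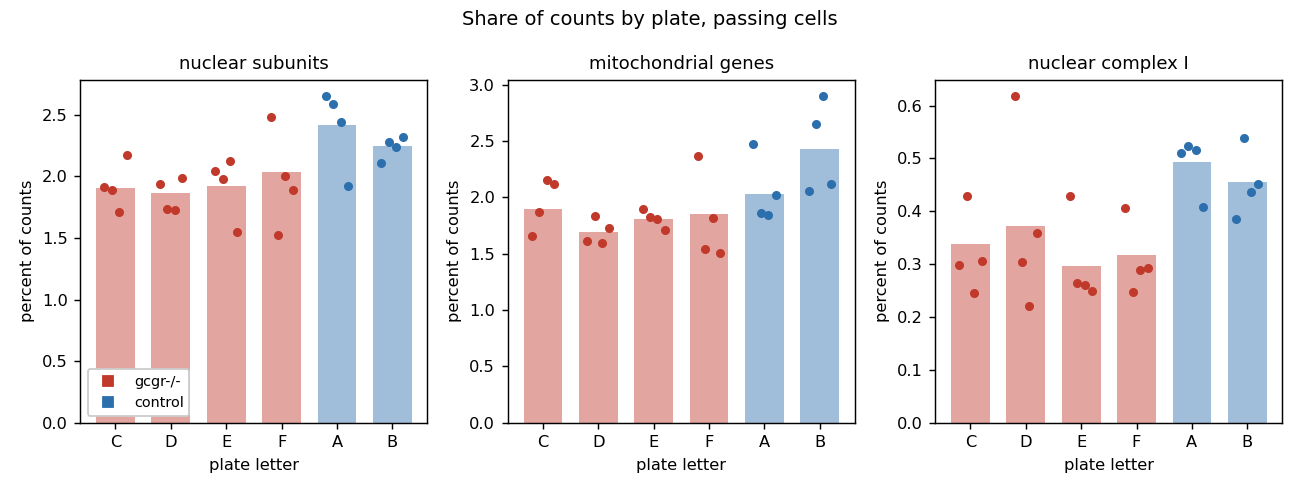
Share of counts (percent, y axes) held by nuclear subunits, by mitochondrial genes and by nuclear complex I in each library (points) and plate (bars), with gcgr-/- plates C to F left of control plates A and B. Nuclear subunits held 1.87 to 2.04% in gcgr-/- plates and 2.25 to 2.42% in control plates, while libraries of the genotypes overlapped.

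Over single genes, 7 of the 107 members were at least 1.5-fold higher in gcgr-/- cells and 33 at least 1.5-fold lower, where 43.4% of the 13594 genes with at least 10 counts were that much higher and 31.9% that much lower. Of these members, cox7a1 and cox5b2 had 0 control counts and could only be called higher, and sdhda had 0 gcgr-/- counts and could only be called lower. The share of members past 1.5-fold lower was near this background of all genes, and the share past 1.5-fold higher was far under it. But 95 of the 107 members had at least 200 counts, against 4583 of the 13594 genes. Genes with few counts pass 1.5-fold more easily, and the shares at 200 counts were not computed. The same limit holds wherever shares of all genes past 1.5-fold are given below. The median ratio was 0.772 over the 107 members, 0.781 over the 82 nuclear subunits and 0.802 over the 13 mitochondrial genes, against 1.20 over all 13594 genes and 1.07 over the 4583 genes with at least 200 counts. On the log2 scale the median of all genes was 0.26, and 0.34 with hormone genes left out of the totals. Of 95 members with at least 200 counts, 26 were lower in every gcgr-/- plate than in either control plate, where 13.2% of all such genes were, and 5 were higher (sdha, sdhb, sdhaf4, cox7a1 and cox8a), where 16% were.

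The complexes differed in size of ratio. Nuclear complex I was lowest, with 0.328% of counts in gcgr-/- cells and 0.479% in control cells, a ratio of 0.685 (0.674 to 0.697). Complex V was at 0.799 (0.791 to 0.808), complex III at 0.849 (0.824 to 0.875) and complex IV at 0.944 (0.929 to 0.960), and the last was 0.996 with hormone genes left out of the totals. Complex II stood above 1, at 0.0445% and 0.0409% and a ratio of 1.09 (1.03 to 1.15), but its plates overlapped, with 0.051, 0.038, 0.038 and 0.051% in gcgr-/- plates against 0.047 and 0.031% in control plates. The ndufa4 group was at 1.1, the assembly factors at 0.796 and the ATP synthase inhibitors at 0.651.

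**Figure D2:**
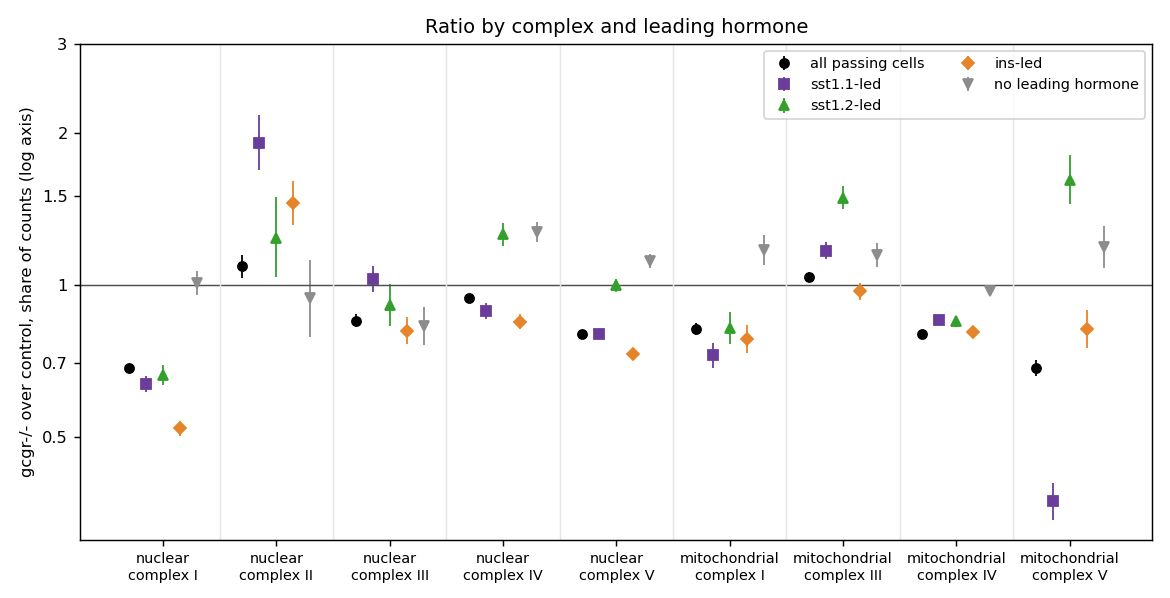
Ratio of the share of counts in gcgr-/- over control cells (log y axis) for the nuclear and mitochondrial part of each complex, in all passing cells and in sst1.1-led, sst1.2-led, ins-led and no-leading-hormone cells, with exact 95% intervals that cover counting error only. Nuclear complex I lies at 0.685 in all passing cells and at 0.520 in ins-led cells, and nuclear complex II at 1.09 and 1.45.

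Complex I, which oxidises NADH, had 17 of its 34 nuclear subunits at least 1.5-fold lower in gcgr-/- cells and 0 as much higher, where 31.9% and 43.4% of all genes were, and 29 of 34 had a ratio below 1. In cells with no leading hormone the complex was at 1.01 (0.957 to 1.06), with 16 of 33 subunits above 1 and 17 below, and in sst1.2-led cells it was at 0.663 (0.633 to 0.696). By plate the complex held 0.338, 0.373, 0.296 and 0.317% of counts in gcgr-/- plates, against 0.493 and 0.455% in control plates, and 13 of its 33 subunits with at least 200 counts were lower in every gcgr-/- plate, where 13.2% of all such genes were. The 3 subunits with most counts were not among the most different. The membrane-arm subunit ndufb8 was at 0.886 (0.834 to 0.941), ndufc2 at 0.684 (0.640 to 0.731), and ndufs7, which carries an iron-sulfur cluster next to the ubiquinone site, at 0.661 (0.623 to 0.703), a value that became 0.792 without plate A and 0.720 without plate C.

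The accessory subunit ndufb2 of the membrane arm had 84.1, 49.2, 50.3 and 81.5 CPM in gcgr-/- plates C to F, against 174 and 261 CPM in control plates A and B. All 4 gcgr-/- plates were below both control plates, and the ratio was 0.319 (0.289 to 0.353). With every cell thinned to 5000 counts it was detected in 10.5% of gcgr-/- cells and 26.5% of control cells. The accessory subunit ndufb11 had 13.9, 27.3, 31.8 and 35.2 CPM against 76.8 and 86.5 CPM, a ratio of 0.344 (0.294 to 0.403). For ndufb10, a more abundantly counted subunit of the same arm, the levels were 173, 139, 161 and 195 CPM in gcgr-/- plates and 391 and 350 CPM in control plates, with 1730 and 1788 counts and a ratio of 0.448 (0.419 to 0.479). The groups did not overlap for any of these subunits.

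Other complex I subunits had like values. The small accessory subunit ndufa1 had 86.3, 89.2, 57.8 and 103 CPM in gcgr-/- plates, against 213 and 156 CPM in control plates, a ratio of 0.435 (0.396 to 0.478). The matrix-arm subunit ndufs4 was at 0.461 (0.412 to 0.517), ndufa7 at 0.388 (0.317 to 0.475) and ndufv3 at 0.404 (0.330 to 0.494), all with every gcgr-/- plate below both control plates. The membrane-arm subunit ndufb3 had 30.1, 70.3, 66.0 and 47.7 CPM in gcgr-/- plates and 186 and 97.7 CPM in control plates, and its ratio of 0.353 became 0.553 without plate A. The subunits above were chosen for their counts or their ratios, so their values describe the pattern and do not add to it.

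Among members whose counts lay mostly in 1 cell or library, ndufab1a, the mitochondrial acyl carrier protein, was at 1.28, but 944 of its 2169 gcgr-/- counts came from 1 cell of plate D, and without plate D the ratio was 0.604. Its paralog ndufab1b was at 1.07 (0.971 to 1.17). The matrix-arm subunit ndufv2 was at 0.833, with 110 of its 190 control counts in 1 library and 69 of them in 1 cell, and was at 1.59 without that library. Leaving out a control library picked for its counts raises such a ratio by design.

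**Figure D3:**
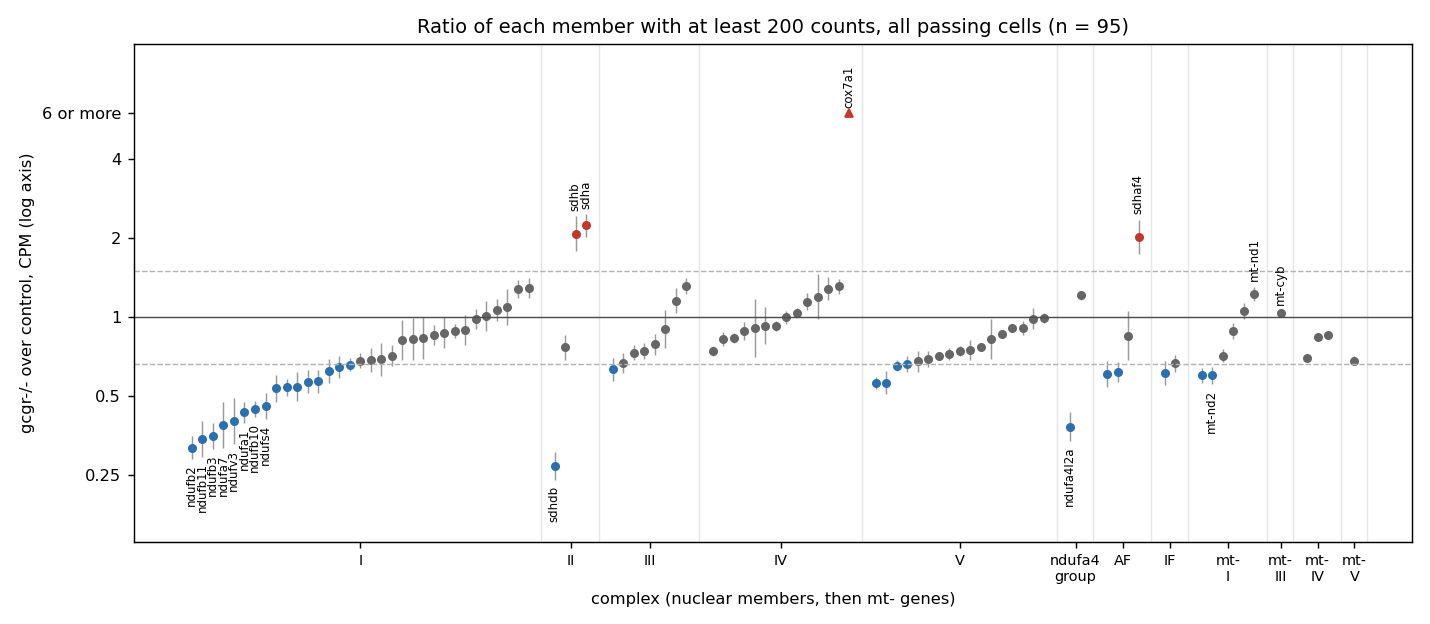
Ratio of CPM in gcgr-/- cells over control cells (log-spaced y axis) for each of the 95 members with at least 200 counts, grouped by complex (AF, assembly factors; IF, ATP synthase inhibitors; mt, mitochondrial genes), with exact 95% intervals for counting error and dashed lines at 1.5-fold in either direction (red, past it higher; blue, past it lower). Complex I subunits lie mostly below 1, and sdha at 2.24, sdhb at 2.08 and sdhaf4 at 2.02 stand highest apart from cox7a1. The gene cox7a1 had 0 control counts and is drawn as a triangle at the highest axis mark, under the lower bound of its ratio.

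Complex II had 2 of its 5 subunits at least 1.5-fold higher in gcgr-/- cells and 2 as much lower, where 43.4% and 31.9% of all genes were. A split of this size was thus near the shares of all genes. The catalytic subunits of complex II, sdha and sdhb, were higher in gcgr-/- cells, and its membrane anchors, sdhc and the sdhd genes, were not. The flavoprotein sdha, which oxidises succinate, had 249, 157, 207 and 289 CPM in gcgr-/- plates C to F, against 107 and 92.1 CPM in control plates A and B. The ratio was 2.24 (2.03 to 2.47), from 2341 counts in 150 gcgr-/- cells and 484 counts in 46 control cells, and at 5000 counts per cell it was detected in 35.1% of gcgr-/- cells and 14.8% of control cells. The iron-sulfur subunit sdhb had 124, 76.0, 92.6 and 77.2 CPM against 45.5 and 41.9 CPM, a ratio of 2.08 (1.79 to 2.43). For both genes every gcgr-/- plate was above both control plates, and leaving out any plate kept the ratio of sdha between 2.01 and 2.47.

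The anchor sdhc had 115, 71.6, 59.5 and 99.4 CPM in gcgr-/- plates, against 104 and 122 CPM in control plates, with overlap and a ratio of 0.772. The anchor sdhdb had 21.8, 78.7, 18.8 and 47.4 CPM against 206 and 53.0 CPM, and its ratio of 0.273 became 0.763 without plate A. Its paralog sdhda had 0 counts in gcgr-/- cells and 19 in control cells, all in 1 cell.

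Of the assembly factors of complex II, sdhaf4 and sdhaf2 were higher in gcgr-/- cells. The factor sdhaf4, which binds the flavinylated catalytic subunit, had 115, 104, 89.9 and 71.8 CPM in gcgr-/- plates against 35.4 and 64.8 CPM in control plates, a ratio of 2.02 (1.75 to 2.35) that became 1.45 without plate A. The flavinylation factor sdhaf2 had 153 gcgr-/- counts in 27 cells and 26 control counts in 5 cells, a ratio of 2.72 (1.79 to 4.30), with 36.6 CPM in plate F and 4.8 to 9.1 CPM in the other gcgr-/- plates. The plates of sdhaf2 overlapped, since plate E had 4.8 CPM and the control plates 5.1 and 6.1 CPM, and without plate F its ratio was 1.25. The factor sdhaf3 was at 0.852 (0.686 to 1.06).

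Assembly factors of complex I were lower or rested on few cells, apart from ndufaf3 (11.8 CPM in gcgr-/- and 10.7 CPM in control). Among them ndufaf1 had 198, 57.6, 77.6 and 144 CPM in gcgr-/- plates and 225 and 135 CPM in control plates, a ratio of 0.617 that became 0.876 without plate A, 0.707 without plate D and 0.701 without plate E. The ratio of ndufaf5 was 0.610 and turned to 1.51 without plate A, since plate A held 152 CPM and plate B 45.2 CPM. Of 78 control counts of ndufaf6, 64 lay in 1 cell, as did all 35 control counts of ndufaf4, 16 of 30 of ndufaf7 and 20 of 63 of ndufaf2.

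**Figure D4:**
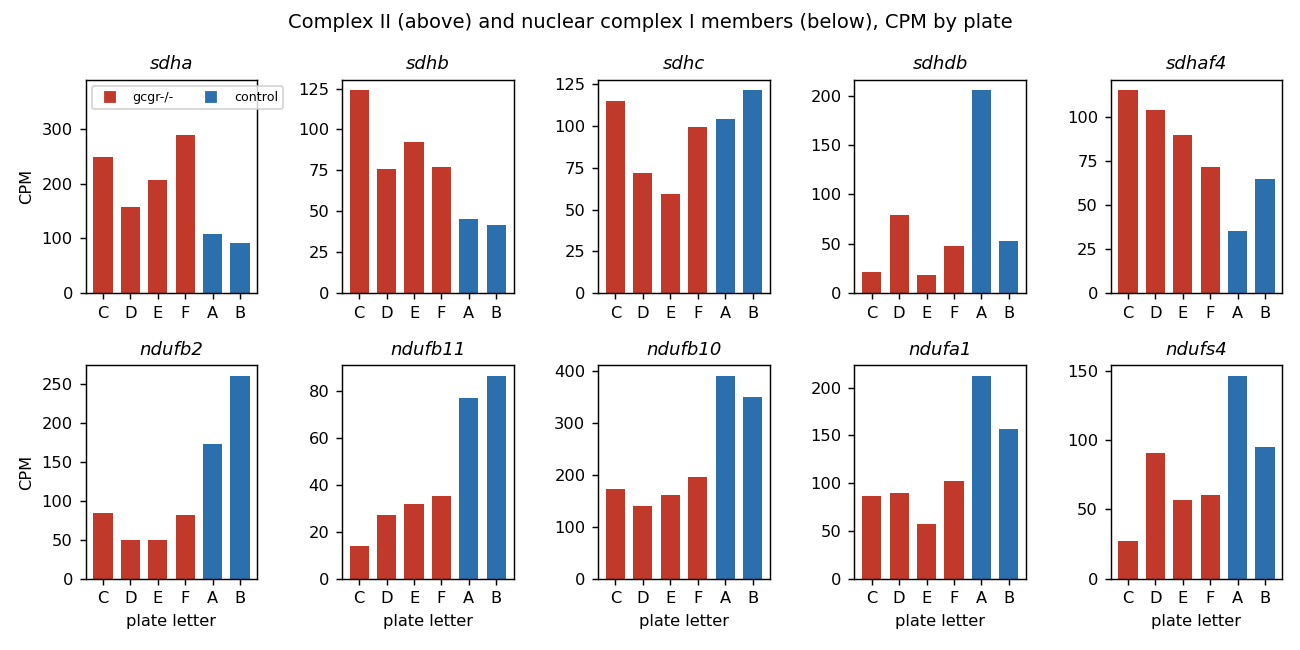
CPM by plate for selected members, gcgr-/- plates C to F left of control plates A and B, each panel with its own y axis starting at 0. Levels of sdha and sdhb are higher in every gcgr-/- plate than in the control plates, and those of ndufb2 and ndufb10 are lower.

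Complex III had 1 of its 8 nuclear subunits past 1.5-fold lower and 0 past 1.5-fold higher, both under the shares of all genes. That subunit, the core protein uqcrc1, had 100, 116, 97.1 and 52.0 CPM in gcgr-/- plates, against 154 and 121 CPM in control plates, and its ratio of 0.634 became 0.744 without plate A and 0.733 without plate F. The hinge protein uqcrh, which has most counts in the complex, was at 1.31 (1.22 to 1.41), with 331, 274, 298 and 229 CPM against 183 and 266 CPM. The Rieske iron-sulfur protein uqcrfs1 was at 0.734 and uqcrb at 0.743, both with overlapping plates. Ratios of uqcrq, uqcrc2b and uqcrc2a were 0.672, 0.790 and 0.901, and the last became 2.56 without plate A.

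Complex IV, cytochrome c oxidase, was spread around 1, with 8 of 16 nuclear subunits above it and 8 below. The subunits with most counts were cox6b2 at 1.04 (0.997 to 1.09), cox4i1 at 0.834 (0.800 to 0.869) and cox7c at 0.745 (0.714 to 0.776). Of these, only cox7c was lower in every gcgr-/- plate, with 552, 580, 599 and 526 CPM against 706 and 844 CPM in control plates. The subunit cox8a had 278, 223, 240 and 239 CPM in gcgr-/- plates and 217 and 208 CPM in control plates, so the plates did not overlap although the ratio was 1.15 (1.07 to 1.23). Its paralog cox8b was at 0.911, but 49 of its 95 control counts lay in 1 library, without which it was at 1.60. Of the others, cox7a2a was at 1.31, cox7a2l at 1.20, cox7b at 1.0, cox5ab at 0.829 and cox5aa at 0.888, the last at 1.39 without plate A.

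Of 16 nuclear subunits of complex IV, 3 were at least 1.5-fold higher in gcgr-/- cells and 0 as much lower, where 43.4% and 31.9% of all genes were. All 3 came from few cells. With 0 control counts, cox7a1 and cox5b2 passed the limit of 10 counts through gcgr-/- cells alone, so they could only be called higher. The gene cox7a1, whose mammalian ortholog is the heart and muscle isoform of its subunit, had 267 counts in 20 gcgr-/- cells and 0 in control cells. Against a floor of 3 counts over the control cells, or 0.630 CPM, it was 41.2-fold higher, a value set by the floor. It was seen in every gcgr-/- plate, at 25.3, 24.6, 30.8 and 22.6 CPM, and in cells led by sst1.1 (7), a glucagon gene (6), ins (4), sst1.2 (2) and ghrl (1). The gene cox4i2, whose mammalian ortholog is a lung and hypoxia isoform, had 111 counts in 7 gcgr-/- cells and 7 counts in 3 control cells, and its plates overlapped. The 10 counts of cox5b2 lay in 2 gcgr-/- cells, 9 of them in 1 cell.

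Complex V, the ATP synthase, had all 17 nuclear subunits below a ratio of 1, with 4 past 1.5-fold lower, where 31.9% of all genes were. In sst1.2-led cells the complex was at 0.998 (0.967 to 1.03), and in cells with no leading hormone at 1.12 (1.08 to 1.15), with 11 of 17 subunits above 1. The catalytic β subunit atp5f1b had 3503, 2862, 3831 and 3952 CPM in gcgr-/- plates, against 4095 and 4197 CPM in control plates, which did not overlap, and a ratio of 0.865 (0.850 to 0.88). The α subunit atp5fa1 was at 0.997 (0.953 to 1.04) and overlapped. The central-stalk subunits atp5f1c, atp5f1d and atp5f1e were at 0.745, 0.727 and 0.664, the last between 0.672 and 0.741 without plate B, C, D or E. In the peripheral stalk, atp5pf was at 0.772, atp5pb at 0.711, atp5po at 0.694 and atp5pd at 0.563, the last with 102, 399, 415 and 300 CPM in gcgr-/- plates and 642 and 401 CPM in control plates, and at 0.774 without plate A and 0.672 without plate C.

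Among the membrane-sector subunits, atp5mea was at 0.565, and at 0.672 without plate E, and its paralog atp5meb at 0.681, atp5mc3b at 0.909 and its paralog atp5mc3a at 0.827, atp5mf at 0.990 and atp5md at 0.750. The inhibitor proteins, known to block ATP hydrolysis by the enzyme, were also lower. Of these, atp5if1b had 153, 173, 184 and 151 CPM in gcgr-/- plates against 227 and 280 CPM in control plates, a ratio of 0.670 (0.622 to 0.722), and atp5if1a was at 0.613 (0.551 to 0.683), and at 0.876 without plate B, with overlapping plates.

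None of the 13 mitochondrial genes was 1.5-fold higher in gcgr-/- cells and 2 were 1.5-fold lower, where 43.4% and 31.9% of all genes were, and 10 of 13 had a ratio below 1. The genes of complex IV, which hold most mitochondrial counts, were all below 1. The subunit mt-co3 had 3854, 3173, 3908 and 3204 CPM in gcgr-/- plates, against 4502 and 6018 CPM in control plates, a ratio of 0.702, and mt-co2 had 6934, 6087, 6527 and 6340 CPM against 7195 and 8427 CPM, a ratio of 0.845. Neither overlapped between genotypes, whereas mt-co1 did, at 0.859. Cytochrome b of complex III, mt-cyb, had 3336, 2713, 3521 and 3443 CPM in gcgr-/- plates and 3170 and 3133 CPM in control plates, a ratio of 1.04 (1.02 to 1.06).

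Mitochondrial complex I was mixed. The genes mt-nd6 and mt-nd2 were the lowest, at 0.601 and 0.602. For mt-nd2 the plates had 184, 148, 155 and 147 CPM in gcgr-/- against 281 and 229 CPM in control, and its ratio became 0.687 without plate A. The gene mt-nd4 was at 0.715 and was also lower in every gcgr-/- plate, while mt-nd5 at 0.887, mt-nd3 at 1.06 and mt-nd1 at 1.23 with overlapping plates. The ratio of mt-nd4l was 0.746, but 40 of its 67 control counts lay in 1 library, and without that library the ratio was 1.60. In complex V, mt-atp6 had 552, 521, 520 and 1033 CPM in gcgr-/- plates against 892 and 1110 CPM in control plates, a ratio of 0.676, and mt-atp8, which had 116 and 67 counts, was at 0.802 (0.588 to 1.1).

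Because the genotypes differed in which hormones led their cells, the comparison was repeated within cells of 1 leading hormone. In ins-led cells the nuclear subunits held 1.81% of counts in gcgr-/- and 2.52% in control, a ratio of 0.718 (0.707 to 0.728), and in sst1.1-led cells 2.06% and 2.52%, a ratio of 0.816 (0.803 to 0.829). By plate the ins-led share was 1.71, 1.76, 1.98 and 1.80% in gcgr-/- and 2.63 and 2.36% in control, and the sst1.1-led share was 2.31, 2.39, 1.84 and 1.88% in gcgr-/- and 2.53 and 2.51% in control, with no overlap in either group. In sst1.2-led cells the ratio was 0.948, and 1.11 with hormone genes left out of the totals, so no direction holds there. Cells with no leading hormone went the other way, at 2.30% and 1.92% and a ratio of 1.20 (1.17 to 1.22), but overlapped by plate, with 2.27, 1.76, 2.69 and 2.33% in gcgr-/- and 1.86 and 2.01% in control. Among the subunits in this share, ndufa4l alone had 2248 CPM in gcgr-/- and 455 CPM in control, a ratio of 4.94. The share without ndufa4l was not computed. Of 97 members in these cells, 59 had a ratio above 1 and 38 below. In those cells α-cell markers held 1.15% of counts in gcgr-/- and 0.0274% in control, and epithelial markers 0.236% in gcgr-/- and 1.59% in control, and the part of either in this value was not tested. Glucagon-led cells were not compared between genotypes, since control had 3 of them.

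The mitochondrial genes followed less closely. Their ratio was 0.831 in ins-led cells, from 1.66% in gcgr-/- and 2.0% in control, 0.855 in sst1.1-led cells, 0.952 in sst1.2-led cells and 1.03 in cells with no leading hormone. By plate the ins-led share was 1.93, 1.37, 1.93 and 1.40% in gcgr-/- and 1.73 and 2.39% in control, which overlapped, as did the sst1.1-led share, at 1.96, 2.17, 1.91 and 1.9% in gcgr-/- and 2.10 and 2.61% in control.

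In ins-led cells, 14 of 103 members were at least 1.5-fold higher in gcgr-/- and 49 were at least 1.5-fold lower, where 43.3% and 37.5% of all 7985 genes tested were. The median ratio was 0.685 over the members and 1.14 over all genes. Complex I held most of the lower members, with 25 of 33 nuclear subunits past 1.5-fold lower and 1 past 1.5-fold higher, against 8 and 0 of 17 for complex V and 1 and 5 of 15 for complex IV. Its ratio was 0.520, and its plates had 0.185, 0.466, 0.194 and 0.299% of counts in gcgr-/- against 0.533 and 0.551% in control. Of 78 members with at least 200 counts in these cells, 20 were lower in every gcgr-/- plate, 12 of them in complex I, where 12.9% of all such genes were, and 1, uqcr10, was higher, where 12.1% were.

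The subunits with the lowest ratios in ins-led cells had counts in few cells. For ndufb2 the CPM was 34.3 in gcgr-/- and 187 in control, with counts in 7 of 54 and 14 of 41 cells, a ratio of 0.183 (0.138 to 0.240) that became 0.110 without plate E. For ndufs5, an accessory subunit on the intermembrane-space side, it was 41.5 and 221, a ratio of 0.188 that became 0.111 without plate A and 0.362 without plate B. The ratio of ndufb3 was 0.177 and became 0.573 without plate A, so its size rested on that plate. For ndufb10 the plates had 59.6, 232, 24.8 and 79.2 CPM in gcgr-/- against 269 and 463 CPM in control, a ratio of 0.275 that became 0.162 without plate D. Of the members with most counts, cox4i1 was at 0.483 (0.443 to 0.526) in these cells and did not overlap by plate.

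Some members were higher in ins-led gcgr-/- cells. The level of sdha was 351 CPM in gcgr-/- and 123 CPM in control, a ratio of 2.85 (2.42 to 3.39), but the plates overlapped, with 397, 123, 153 and 660 CPM in gcgr-/- and 101 and 155 CPM in control. The ratio of sdhb was 1.87 and became 1.39 without plate F, while the anchor sdhc was at 0.337 (0.264 to 0.428) and did not overlap by plate. The mitochondrial gene mt-nd5 was at 2.13 (1.75 to 2.60), with 270, 34.1, 307 and 207 CPM in gcgr-/- and 76.9 and 128 CPM in control, which overlapped. The ratio of ndufab1a, 2.65, was the highest here after sdha among members with at least 200 counts, but became 0.513 without plate D, where 1 cell held 944 counts, and 5.42 without plate A.

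In sst1.1-led cells, 19 of 101 members were at least 1.5-fold higher in gcgr-/- and 39 were at least 1.5-fold lower, where 49.2% and 32.5% of all 7486 genes tested were. Hormone transcripts took 14.5% of counts in these gcgr-/- cells and 24.4% in control cells, and with hormone genes left out of the totals 16 members were higher and 50 lower. The median of all genes on the log2 scale was 0.55, and 0.37 without hormone genes, and the median ratio of the members was 0.764 and 0.676. Nuclear complex I was at 0.637, with 0.381, 0.374, 0.234 and 0.309% of counts in gcgr-/- plates against 0.508 and 0.461% in control plates, and had 16 of 33 subunits past 1.5-fold lower and 6 past 1.5-fold higher. Of 73 members with at least 200 counts, 13 were lower in every gcgr-/- plate, 6 of them in complex I, where 6.69% of all such genes were, and 2 were higher, where 15.8% were. The 2 that were higher were sdha and sdhb.

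In sst1.1-led cells the same complex II subunits were on either side of 1. The level of sdha was 276 CPM in gcgr-/- and 67.0 CPM in control, a ratio of 4.12 (3.26 to 5.26), with 198, 137, 337 and 362 CPM by plate in gcgr-/- and 64.6 and 71.1 CPM in control. The level of sdhb was 169 CPM in gcgr-/- and 32.7 CPM in control, with 220, 156, 167 and 120 CPM by plate against 19.9 and 54.4 CPM, and its ratio of 5.15 became 3.10 without plate A and 8.49 without plate B. The anchor sdhc was at 0.684, and at 0.386 without plate C. In sst1.2-led cells sdha was at 3.32, with 176, 248, 143 and 287 CPM in gcgr-/- plates and 58.3 and 77.4 CPM in control plates, whereas sdhb was at 0.850, and sdhc was at 3.75. Only sdha among the complex II subunits was thus higher in all 3 of the ins-, sst1.1- and sst1.2-led groups, and it was at 2.56 in cells with no leading hormone.

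Among other members, ndufb2 and ndufb10 were lower in sst1.1-led gcgr-/- cells. For ndufb2 the levels were 76.4 CPM in gcgr-/- and 371 CPM in control, a ratio of 0.206 that became 0.131 without plate C. Its levels were 176 CPM in gcgr-/- and 146 CPM in control for sst1.2-led cells, a ratio of 1.20, and its ratio was 1.07 in cells with no leading hormone. For ndufb10 the levels were 145 and 411 CPM, a ratio of 0.353 that became 0.529 without plate E and 0.204 without plate F. The ratio of ndufb3 was 0.186, from counts in 2 gcgr-/- cells and 12 control cells, and became 0.284 without plate E and 0.055 without plate F. The ratio of ndufa10 was 0.212 and became 0.741 without plate A. The hinge protein uqcrh was at 2.48, and at 1.55 without plate A and 3.83 without plate B. The mitochondrial gene mt-atp6 had 513, 695, 281 and 775 CPM in gcgr-/- plates against 1404 and 1380 CPM in control plates, a ratio of 0.374 (0.343 to 0.407), while in sst1.2-led cells mitochondrial complex V was at 1.61.

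The glucagon-led cells could be set beside the ins-led cells of the same gcgr-/- plates, where the ratio is glucagon-led over ins-led. Nuclear subunits held 1.92% of counts in glucagon-led cells and 1.81% in ins-led cells, a ratio of 1.06 (1.05 to 1.08), and were higher in the glucagon-led cells of 11 of 15 libraries that held both. Mitochondrial genes held 1.55% and 1.66%, a ratio of 0.933 that became 1.14 as a mean over cells, 1.07 at 5000 counts per cell and 1.01 without plate C, and were higher in 6 of 15 libraries, so no direction holds for them. Of 105 members, 35 were at least 1.5-fold higher in glucagon-led cells and 18 were at least 1.5-fold lower, where 45.9% and 30.9% of all 9935 genes tested were. Complex I had 20 of 33 nuclear subunits past 1.5-fold higher and 3 past 1.5-fold lower, with 0.370% of counts in glucagon-led cells and 0.281% in ins-led cells, a ratio of 1.32 (1.28 to 1.36). By plate C to F it held 0.415, 0.388, 0.380 and 0.306% in glucagon-led cells and 0.185, 0.466, 0.194 and 0.299% in ins-led cells, so plate D went the other way. Complex II was lower, at 0.711 (0.660 to 0.767), with sdha at 0.526, and at 0.870 without plate F. A nuclear share above that of ins-led cells was not particular to glucagon-led cells. It was also seen in sst1.1-led cells of 11 of 14 gcgr-/- libraries and in sst1.2-led cells of 10 of 13. Glucagon-led cells had a higher nuclear share than sst1.1-led cells in 6 of 15. Over ins-led cells, sst1.1-led gcgr-/- cells had 13 of 33 nuclear complex I subunits past 1.5-fold higher and 3 lower. In control cells the same comparison went the other way, with 4 of 33 past 1.5-fold higher and 11 lower. The shares of all genes were not computed for sst1.1-led over ins-led cells.

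The lowest ratio of glucagon-led over ins-led gcgr-/- cells was that of ndufa4l2a. This gene, whose mammalian ortholog is induced by hypoxia, had 4 counts in 3 of 106 glucagon-led cells, or 0.971 CPM, and 424 counts in 44 of 54 ins-led cells, or 217 CPM, in gcgr-/-. The ratio was 0.00447 (0.00121 to 0.0115), and 0.00296 without plate D. By plate it had 0, 2.0, 0 and 1.9 CPM in glucagon-led cells and 220, 216, 108 and 307 CPM in ins-led cells. In control it had 257 CPM in ins-led cells, with counts in 27 of 41 cells and 356 and 114 CPM in plates A and B. In sst1.1-led cells its levels were 17.9 CPM in gcgr-/- and 83.4 CPM in control, where 72 of the 107 control counts lay in 1 cell. For sst1.2-led cells they were 5.23 and 179 CPM, where 85 of the 87 control counts lay in 1 cell. For cells with no leading hormone its levels were 8.98 and 3.25 CPM. Over all passing cells its genotype ratio was 0.384, while within ins-led cells it was 0.845 (0.733 to 0.974). Its relative ndufa4l had 1108 CPM in glucagon-led and 579 CPM in ins-led gcgr-/- cells, and over all cells was at 1.21 in gcgr-/- over control with overlapping plates.

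**Figure D5:**
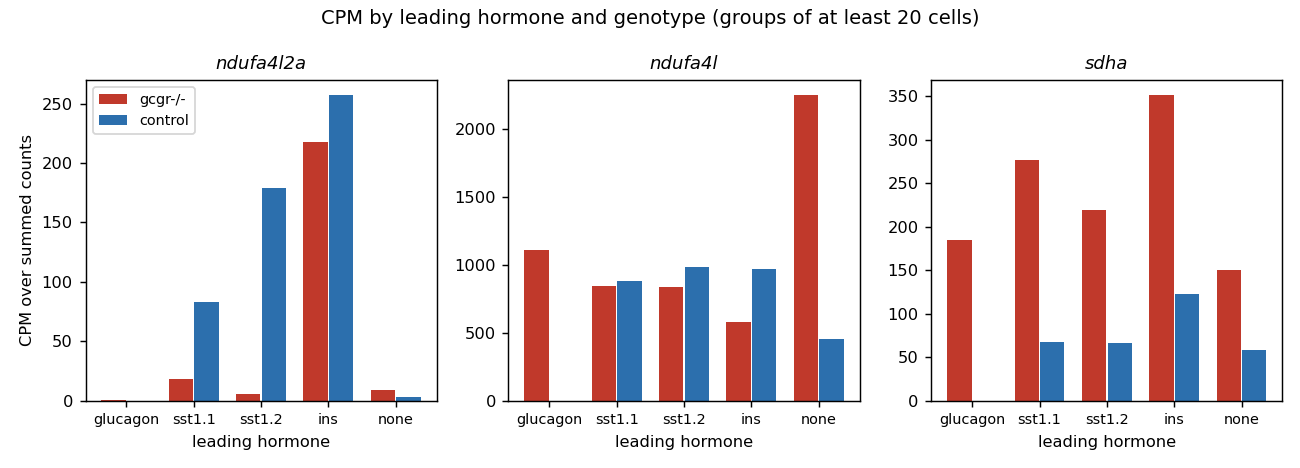
CPM over summed counts (y axes, starting at 0) of ndufa4l2a, ndufa4l and sdha in cells grouped by leading hormone, gcgr-/- left of control, for groups of at least 20 cells, so that the 3 control cells led by a glucagon gene have no bar. For ndufa4l2a the level was 217 CPM in gcgr-/- and 257 CPM in control ins-led cells and 0.971 CPM in gcgr-/- glucagon-led cells, and sdha was higher in gcgr-/- than in control cells of each group drawn with both.

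Other members with large differences between glucagon-led and ins-led gcgr-/- cells moved with single plates. The zinc-binding accessory subunit ndufs6 was at 5.21, and at 3.05 without plate D and 9.22 without plate F. The subunit ndufb3 was at 3.61, the complex III core protein uqcrc1 at 3.10 and ndufb10 at 2.48, the last at 4.96 without plate D and 1.62 without plate E. On the lower side, ndufab1a was at 0.113 and 0.470 without plate D, and atp5mea was at 0.307 and 0.202 without plate F.

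Genes that work with the chain were counted from lists of related genes, against the same background of 43.4% higher and 31.9% lower. Of 13 transcriptional regulators of mitochondrial content, 9 were at least 1.5-fold higher in gcgr-/- cells and 1 was lower, with a median ratio of 3.89. In ins-led cells 8 of 10 were higher and 1 lower, with a median of 4.69, where 43.3% and 37.5% of all genes were. But in sst1.1-led cells only 2 of 7 were higher and 1 lower, with a median of 1.46, where 49.2% and 32.5% of all genes were. Over all passing cells the coactivator ppargc1a (PGC-1α) had 7.41, 13.2, 41.4 and 24.4 CPM in gcgr-/- plates C to F, against 6.74 and 4.47 CPM in control plates, a ratio of 3.90 (2.63 to 6.0). The nuclear receptor esrra had 154 counts in gcgr-/- cells and 0 in control cells, with 1.74, 7.03, 13.3 and 34.1 CPM by gcgr-/- plate. Against the floor of 3 counts over the control cells it was 23.8-fold higher, a value set by the floor. The plates of ppargc1a did not overlap between genotypes. With 0 control counts, esrra passed the limit of 10 counts through gcgr-/- cells alone, so it could only be called higher. Any count in a gcgr-/- plate put that plate above control for this gene. The coactivator pprc1 was at 3.89, and at 25.8 without plate A and 2.57 without plate B. Of 73 mitochondrial ribosomal proteins, 9 were higher and 32 lower, with a median ratio of 0.699. In ins-led cells 14 of 67 were higher and 38 lower, with a median of 0.593, where 43.3% and 37.5% of all genes were. But in sst1.1-led cells 29 of 69 were higher and 22 lower, with a median of 1.21, where 49.2% and 32.5% of all genes were.

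Of 16 TCA cycle genes, 2 were higher and 6 lower, with a median ratio of 0.777. Malate dehydrogenase mdh2 had 748, 486, 648 and 515 CPM in gcgr-/- plates against 370 and 377 CPM in control plates, a ratio of 1.60 (1.52 to 1.69). Citrate synthase, cs, had 1.74, 17.1, 4.44 and 5.74 CPM against 206 and 5.02 CPM, and its ratio of 0.0538 became 1.39 without plate A, so its direction rested on that plate.

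Of 26 import and chaperone genes, 10 were higher and 7 lower, with a median of 1.07. In ins-led cells 7 of 23 were higher and 9 lower, at a median of 1.09, where 43.3% and 37.5% of all genes were. But in sst1.1-led cells 12 of 21 were higher and 1 lower, at a median of 2.22, where 49.2% and 32.5% were. Over all passing cells the matrix chaperone hspd1 had 149, 179, 162 and 228 CPM in gcgr-/- plates against 51.9 and 53.6 CPM in control plates, a ratio of 3.44 (3.02 to 3.95). Its partner hspe1 was at 1.75 with no overlap. Of 10 genes of mitochondrial DNA transcription and replication, 3 were higher and 5 lower, with a median of 0.778. In ins-led cells 5 of 9 were higher and 3 lower, at a median of 1.60, where 43.3% and 37.5% of all genes were. In sst1.1-led cells 4 of 7 were higher and 2 lower, at a median of 2.08, where 49.2% and 32.5% were, so no direction holds for this list. Over all passing cells the single-strand binding protein ssbp1 was at 0.209 with no overlap between plates, and the transcription factor tfam was at 0.630, and at 3.39 without plate A. Of 13 genes for cytochrome c, carriers and porins, 3 were higher and 1 lower, with a median of 1.21, and of 36 assembly factors of the chain, 6 were higher and 17 lower, with a median of 0.744. In ins-led cells 7 of 30 assembly factors were higher and 17 lower, at a median of 0.599, where 43.3% and 37.5% of all genes were. In sst1.1-led cells 13 of 30 were higher and 12 lower, at a median of 1.18, where 49.2% and 32.5% of all genes were.

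Within single cells the nuclear and mitochondrial parts were only loosely tied. Spearman's rho between the shares was 0.22 over 288 gcgr-/- cells and 0.26 over 156 control cells, as a description over cells that share libraries and depth. After thinning to 5000 counts, the median number of nuclear subunits detected was 19 in 285 gcgr-/- cells and 21 in 155 control cells, with 3 and 1 shallower cells left out, against 28 and 29.5 without thinning. The median number of mitochondrial genes detected was 6 and 7.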

How the data were processed

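The deposited tables hold raw read counts per gene and cell, which the authors made from modified Smart-seq2 3′-end libraries by removing poly T, trimming with Trim Galore, aligning to GRCz11 with STAR and counting on CDS features with featureCounts. Collapsing of UMIs is not stated. The counts therefore follow PCR reads, and genes whose 3′ ends lie outside the coding sequence are undercounted. Gene rows of the tables were joined by position, since 17 of 24900 names differed between them, none of a member. The tables without potential beta and delta cells were used only to mark the 197 gcgr-/- and 88 control cells the authors kept, by a rule not given in the sources used here.

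Cells with at least 500 detected genes and at most 10% mt- counts were used, with total counts of 10283390 in gcgr-/- and 4760583 in control cells and 2231 to 286288 and 3834 to 162322 counts per cell. Precision was given as exact conditional 95% intervals of ratios of summed counts, which cover counting error only. With 1 sample per genotype no test was run, and cells, libraries and plates were not taken as replicates. Reading the leading letter of a cell name as a plate, and its prefix as a library, is an assumption. A gene was counted as past 1.5-fold when it had at least 10 counts in the groups compared, and ratios against 0 counts used a floor of 3 counts per group.

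Genes named were every mt- gene, the 3 nuclear members with most counts in each complex, the 3 members with the highest and the lowest ratio in each comparison among those with at least 200 counts, paralog groups, and members with most counts in 1 cell or library. Others (among them ndufb10, ndufa1, ndufa7, ndufs4, ndufv3, sdhaf3, uqcr10, cox4i2 and atp5fa1, and the related genes) were chosen after their values were seen. The members and lists were chosen with earlier results of these data known. Alternatives were totals without 9 hormone genes, means over cells, thinning to 5000 counts, at least 750 genes, single plates left out, the cells the authors kept, no limit on the mt- share, all sequenced cells and a limit of 5% for the leading hormone. The ratio and interval code was tested on simulated data. The upper-case names NDUFB1, NDUFAF8, COX5B and COX7A2 (1 of many) fall outside the rule. Python 3.11.15, numpy 2.4.6, pandas 2.3.3, scipy 1.17.1 and matplotlib 3.10.9 were used.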

Additional observations from a re-analysis of the deposited data

Results flagged for a closer look

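The genotype ratio of the share of counts differed between cells grouped by leading hormone, and since each genotype was 1 sample this difference was not tested. For nuclear subunits the ratio of gcgr-/- over control was 1.20 in cells with no leading hormone, against 0.816 in sst1.1-led, 0.948 in sst1.2-led and 0.718 in ins-led cells. For mitochondrial genes it was 1.03 in cells with no leading hormone, against 0.855, 0.952 and 0.831 in the same groups. In the cells with no leading hormone α-cell markers held 1.15% of counts in gcgr-/- and 0.0274% in control, and epithelial markers 0.236% and 1.59%, and the part of either in these values was not tested. The nuclear value there includes ndufa4l, which was at 4.94, and the ratio without it was not computed.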

How the results depend on the processing

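With 9 hormone genes left out of the totals, the ratio of gcgr-/- over control was 0.867 for nuclear subunits and 0.877 for mitochondrial genes in all passing cells, 0.722 and 0.756 in sst1.1-led cells and 0.755 and 0.874 in ins-led cells, and that of glucagon-led over ins-led cells was 1.09 and 0.957. As a mean over cells these were 0.846 and 0.816, 0.853 and 0.783, 0.689 and 0.707, and 1.11 and 1.14. At 5000 counts per cell they were 0.844 and 0.801, 0.863 and 0.783, 0.687 and 0.721, and 1.11 and 1.07. With single plates left out they spanned 0.800 to 0.862 and 0.746 to 0.893 in all passing cells, 0.778 to 0.860 and 0.748 to 0.934 in sst1.1-led cells, 0.687 to 0.767 and 0.695 to 0.960 in ins-led cells, and 1.04 to 1.09 and 0.870 to 1.01 for glucagon-led over ins-led cells. The direction held in these alternatives except for mitochondrial genes in glucagon-led over ins-led cells, which turned as a mean over cells, at 5000 counts and without plate C (1.01), and the cause was not tested.

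With at least 750 genes per cell the all-cell ratios were 0.805 and 0.849, mitochondrial genes in ins-led cells were at 0.890, and glucagon-led over ins-led cells were at 1.05 and 0.888. In the cells the authors kept, the ratios were 0.901 and 0.776 over all cells and 0.934 and 0.893 in sst1.1-led cells. Without a limit on the mt- share, mitochondrial genes were at 0.792. With a leading hormone of at least 5%, the ratios were 0.837 and 0.814 in sst1.1-led cells, 0.686 for nuclear subunits in ins-led cells, and 1.1 and 0.852 for glucagon-led over ins-led cells. The following were chosen after seeing the data. Without cells over 1% epithelial markers the all-cell ratios were 0.791 and 0.813, without glucagon-led cells 0.833 and 0.918, and without the cell holding most ndufab1a counts the nuclear ratio was 0.702 in ins-led cells and 1.09 for glucagon-led over ins-led cells.

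Members at least 1.5-fold higher over all cells reached 15 without plate A. With at least 200 counts required, members at least 1.5-fold higher numbered 4 in place of 7 over all cells, 6 in place of 19 in sst1.1-led cells and 8 in place of 14 in ins-led cells, and those lower in glucagon-led than ins-led cells numbered 10 in place of 18. Among named members, ndufaf5 spanned 0.448 to 1.51 with single plates left out, turning without plate A, and ndufab1a in ins-led cells spanned 0.513 to 5.42, turning without plate D. Of 8 members with most of their control counts in 1 library, and counts left without it, all had a higher ratio without that library, a choice made after seeing the data. Leaving out the library with most control counts lowers the control level, so this rise was fixed by the choice. The same holds for the values of ndufv2, cox8b and mt-nd4l without 1 library. No paired analysis of the genotypes was possible because each was 1 sample. Each genotype was 1 sample, and a member with few counts lies in few cells.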
